A study of Mus musculus with 18 samples.

Results

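The beta-globin locus of the mouse was examined with NG Capture-C, in which chromatin is crosslinked, cut with the restriction enzyme DpnII, ligated and then enriched with biotinylated oligonucleotides for fragments joined to a chosen viewpoint. All DpnII fragments of mm9 chr7:110700000-111300000, a stretch of 600 kb, were taken from the Hbb column of the enhancer capture. The window holds 1572 DpnII fragments, and 970 of them carried at least 1 interaction in the 9 libraries, out of 23968 fragments with interactions over the whole genome in the same column. The fragments were chosen by position alone, and no measured value entered the choice. Of the 970 fragments, 144 had 10 or more reads and 242 had a single read, and no fragment had more than 150.

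The study compared 3 cell types with 3 libraries each. Embryonic stem cells (ESC, strain 129/Sv//EV, day 0) were kept in 1000 U/ml LIF. Definitive endoderm (DE, strain 129/Sv//EV, day 5) was derived from ESC through embryoid bodies that received 20 ng/ml ActivinA and 20 ng/ml EGF from day 2. Erythrocytes (PHS, strain C57BL/6, labelled day 5) came from the spleens of mice given phenylhydrazine. This drug destroys red cells and fills the spleen with erythroid precursors. The spleen cells passed a mesh, with no sort named in the labels. DE is a cell population made in culture and the spleen suspension may hold other cells, so values describe mixtures of cells. In every comparison with erythrocytes the strain differs as well as the cell type, and their parts cannot be told apart. The files used here hold no RNA values, so the labelled cell types were not checked against marker genes. The study calls the libraries of a cell type biological replicates, and the labels tie none of them to a named culture or animal, so p-values measure the spread between these libraries.

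The mouse beta-globin genes lie in a row on the minus strand, inside a large array of olfactory receptor genes. Hbb-b1 and Hbb-b2 encode the adult beta-globin chains of haemoglobin, whereas Hbb-y and Hbb-bh1 are used in the embryo and the GENCODE M1 annotation lists Hbb-bh0 and Hbb-bh3 as pseudogenes and Hbb-bh2 as a further protein-coding gene. The locus control region, a cluster of enhancers upstream of Hbb-y, is known for reaching the active globin promoters by looping in erythroid cells. Strain C57BL/6 carries the "single" and 129 strains the "diffuse" form of the adult genes, and the mm9 sequence is that of C57BL/6.

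The column is labelled as part of the enhancer capture, but the main zones without values common to both captures lie at the adult globin promoters. Zones empty in the enhancer capture alone were not sought, so a further viewpoint of that capture was not tested. Capture data hold no values on the viewpoint fragment and its close neighbours, so the viewpoint was sought as a zone without values among fragments rich in interactions. Over all 18 libraries of the enhancer and promoter captures, the zone with the most reads beside it spans chr7:110961283-110963273 and covers 6 fragments over the 5′ part of Hbb-b2. The next spans chr7:110975292-110977138 and covers 4 fragments over the 5′ part of Hbb-b1. Within 2 kb of the zone at Hbb-b2 there were 477 reads in the enhancer capture, and within 2 kb of the zone at Hbb-b1 there were 334. The labels of both captures list Hbb-b1 and Hbb-b2 among the genes analysed. All contacts below are therefore read as contacts of the adult promoters, described as the Hbb column of the enhancer capture.

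The bases before the transcription start are shown for both promoters in these empty zones and for both embryonic genes they were compared with. The 150 bases are from RefSeq (GRCm38.p6), found once each in the mm9 assembly (NCBIM37), except those of Hbb-bh1, which were read from NCBIM37 before the GENCODE M1 start. Capitals mark 4 motifs on either strand, which are CACCC, the box spelled CCAAT, the TATA-type box spelled ATATAA, and its variant spelled ATAAAAG. Hbb-b1 (RefSeq Hbb-bs) lies at chr7:110976443-110976592, Hbb-b2 (RefSeq Hbb-bt) at chr7:110962438-110962587, Hbb-bh1 at chr7:110991679-110991828 and Hbb-y at chr7:111001722-111001871, all on the minus strand.
Hbb-b1: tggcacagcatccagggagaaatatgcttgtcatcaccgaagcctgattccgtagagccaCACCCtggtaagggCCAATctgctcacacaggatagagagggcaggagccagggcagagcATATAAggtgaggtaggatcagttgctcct
Hbb-b2: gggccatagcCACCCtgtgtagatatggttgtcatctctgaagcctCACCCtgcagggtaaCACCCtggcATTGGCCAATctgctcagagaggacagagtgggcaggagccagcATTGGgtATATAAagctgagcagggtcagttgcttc
Hbb-bh1: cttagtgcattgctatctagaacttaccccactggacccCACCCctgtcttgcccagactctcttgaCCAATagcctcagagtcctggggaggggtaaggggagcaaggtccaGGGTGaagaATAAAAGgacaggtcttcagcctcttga
Hbb-y: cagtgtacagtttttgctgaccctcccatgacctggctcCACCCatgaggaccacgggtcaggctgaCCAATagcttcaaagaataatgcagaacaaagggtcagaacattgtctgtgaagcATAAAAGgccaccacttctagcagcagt

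All 4 promoters held the CACCC motif as well as the CCAAT motif, which stood in 37.4% and 24.5% of 32851 RefSeq promoters of the same length. Hbb-b1 and Hbb-b2 carried ATATAA, at 30 and 29 bases before the start. Hbb-bh1 and Hbb-y carried ATAAAAG at 28 bases before the start instead. ATATAA was found in 5.35% of the RefSeq promoters and ATAAAAG in 3.01%. The adult genes are near copies of each other where they were captured. Of the 30-base words in the empty zones, 50.8% at Hbb-b2 and 54.8% at Hbb-b1 occurred a second time in the window, against 8.58% and 2.81% in the fragments with reads at these genes. How reads were divided between the copies was not tested.

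The libraries were shallow. The Hbb column of the enhancer capture held 521 to 973 reads per library in ESC, 2611 to 5092 in DE and 3185 to 11478 in erythrocytes. Of these, 135 to 262, 490 to 973 and 374 to 1460 lay in the window. Interactions on chromosome 7 made up 69.5% to 73.7% of the column in ESC and 62.6% to 65.4% in DE. In erythrocytes they made up 27.6% (95% Wilson interval 26.8% to 28.4%), 69.8% (68.2% to 71.3%) and 21.6% (20.2% to 23.1%) in replicates 1, 2 and 3. Replicates 1 and 3 thus stood apart from every other library, and the part of this in the results below was not tested. Each column was rescaled to 100000 interactions on chromosome 7, and "contact" below means this value. A single read was then worth 145 to 276 in ESC, 30.0 to 59.0 in DE and 31.5 to 145 in erythrocytes. Intervals and read totals cover counting error only.

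The same 9 libraries were put through the promoter capture, and the balance between the 2 adult genes differed between captures. Of the reads within 5 kb of either zone, those beside Hbb-b2 made up 51.2% ± 10.1 (SD, n = 3) in ESC in the enhancer capture and 8.89% ± 1.50 in the promoter capture. In DE the shares were 54.6% ± 2.60 and 16.0% ± 3.30, and in erythrocytes 65.1% ± 15.8 and 41.8% ± 4.63. The share was higher in the enhancer capture in 9 of 9 libraries. The ratio of reads beside Hbb-b2 to reads beside Hbb-b1 was 5.79-fold higher, a mean log2 difference of 2.53 (SD 1.05), with an exact two-sided permutation p of 0.0039, the smallest that 9 pairs can give. The mean log2 difference was 2.54 without the 2 stretches described next.

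**Figure D1:**
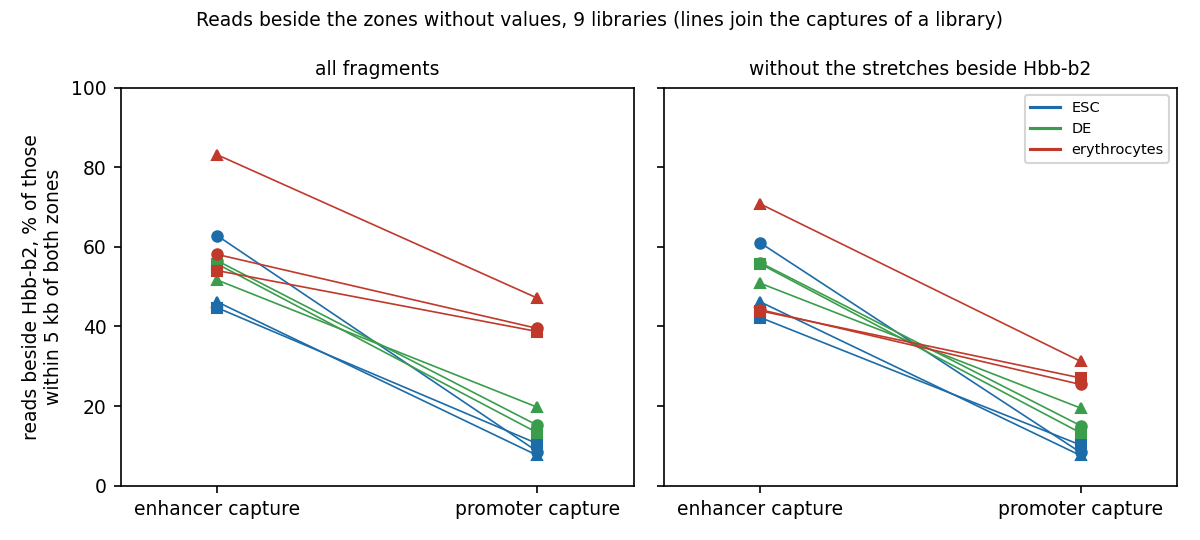
Share of reads within 5 kb of the 2 empty zones that lay beside Hbb-b2 (vertical axis, percent), for each of 9 libraries in both captures, with lines joining the captures of a library. The share was higher in the enhancer capture, between 44.7% and 83.1%, than in the promoter capture, between 7.58% and 47.1%, in every library.

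Beside Hbb-b2, 2 stretches had reads in erythrocytes and almost none in ESC or DE. They were found from the values, as neighbouring fragments with at least 10 times more erythrocyte reads than ESC and DE reads together, so their difference is a description. The first, chr7:110958540-110961282 downstream of the zone at Hbb-b2, held 1 read in ESC, 4 in DE and 239 in erythrocytes. Its contact in erythrocytes was 3375, 1759 and 12936 in replicates 1, 2 and 3, so replicate 3 was far above the others. The second, chr7:110964839-110971167 between the adult genes, held 3 reads in ESC, 0 in DE and 157 in erythrocytes. Its contact in erythrocytes was 1798, 3272 and 2907. In the promoter capture the pattern was alike, with 2, 3 and 414 reads in the first stretch and 1, 1 and 300 in the second. Of the 30-base words of the second stretch 39.7% occurred again in the window, against 5.45% in the first. ESC and DE share a strain that erythrocytes do not, and whether reads of the 129 strain map to these stretches was not tested. Values without them are given for the adult genes, for shares and for counts of called bins and fragments.

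The adult genes came first by role, as the genes that erythroid cells of the adult use. Their fragments, outside the empty zones and with 1 kb margins, held contact of 364, 870 and 1381 in the ESC replicates. In DE the values were 690, 1002 and 323. In erythrocytes they were 4921, 3804 and 12936, all above every ESC and DE library. Contact with the adult genes was higher in erythrocytes than in ESC by 3.02 on the log2 scale (SE 0.60, adjusted p = 0.0076, limma on log2 of contact plus 10). Against DE the log2 difference was 3.34 (SE 0.57, adjusted p = 0.0019). Without the stretches the differences were 2.11 (adjusted p = 0.0098) and 2.43 (adjusted p = 0.0022) with limma. The call against ESC was lost with all interactions as the total (log2 difference 1.97, limma adjusted p = 0.20), without the trend in limma (adjusted p = 0.069) and without ESC replicate 2 (3.11, limma adjusted p = 0.064). With edgeR the differences were 3.07 against ESC (adjusted p = 1.7e-05) and 3.38 against DE (adjusted p = 3.9e-11). These fragments adjoin the viewpoint, and the adult genes held 13 reads in ESC and 47 in DE.

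Of the adult genes, Hbb-b2 had the higher summed mean contact in erythrocytes with the first stretch included, and Hbb-b1 without the stretches. The sums cover unequal lengths, 1.008 kb for Hbb-b2 and 2.11 kb for Hbb-b1 without the stretches. Per kb, Hbb-b2 stayed higher there, with erythrocyte means of 1533 against 847. Contact of Hbb-b2 was 0, 435 and 1381 in ESC and 420, 472 and 92.3 in DE. In erythrocytes it was 2902, 2045 and 11773, with no overlap with either of the others. Without the stretch only 1 fragment of Hbb-b2 was left, with 1098, 1120 and 2418 in erythrocytes, so that erythrocytes overlapped ESC. Against DE the log2 difference was 3.90 (limma adjusted p = 0.0057), and 2.39 (limma adjusted p = 0.019) without the stretches. Against ESC it was 4.49 with a limma adjusted p of 0.074 and 3.32 with an edgeR adjusted p of 1.7e-05, and without the stretches 2.98 with a limma adjusted p of 0.19. Hbb-b1 had contact of 364, 435 and 0 in ESC and 270, 531 and 231 in DE. In erythrocytes it had 2019, 1759 and 1163, again above every other library. Against DE the log2 difference of Hbb-b1 was 2.28 (limma adjusted p = 0.0050). Against ESC it was 3.77 (limma adjusted p = 0.083), and edgeR gave 2.45 (adjusted p = 0.0016). With all interactions as the total, the limma call of Hbb-b1 against DE was lost (1.39, adjusted p = 0.18).

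The interval of the locus control region was set at 5 to 25 kb upstream of the Hbb-y start, chr7:111006754-111026754, with 42 fragments that had reads. Its contact in ESC was 1818, 2319 and 1657, a mean of 1931 ± 345 (SD, n = 3). In DE it was 1231, 1474 and 1292, a mean of 1332 ± 127. In erythrocytes it was 8423, 14233 and 10901, a mean of 11186 ± 2916, so the lowest erythrocyte library stood far above the highest of the others. Contact of the adult promoters with the interval was higher in erythrocytes than in DE by 3.03 on the log2 scale (SE 0.26, adjusted p = 0.00061, limma), an 8.18-fold difference. It stayed called against DE in all alternatives run, with log2 differences between 2.14 and 3.61. Against ESC it was higher by 2.51 (SE 0.40, adjusted p = 0.0052, limma), a 5.69-fold difference. With all interactions as the total, the difference from ESC was 1.47 (limma adjusted p = 0.37). EdgeR gave 2.51 (adjusted p = 0.00022). With erythrocyte replicate 2 as the only erythrocyte library it was 2.89, a value with no erythrocyte spread behind it. In the promoter capture of the same libraries the interval had contact of 1634 ± 407 in ESC, 1388 ± 80.5 in DE and 12241 ± 3979 in erythrocytes.

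**Figure D2:**
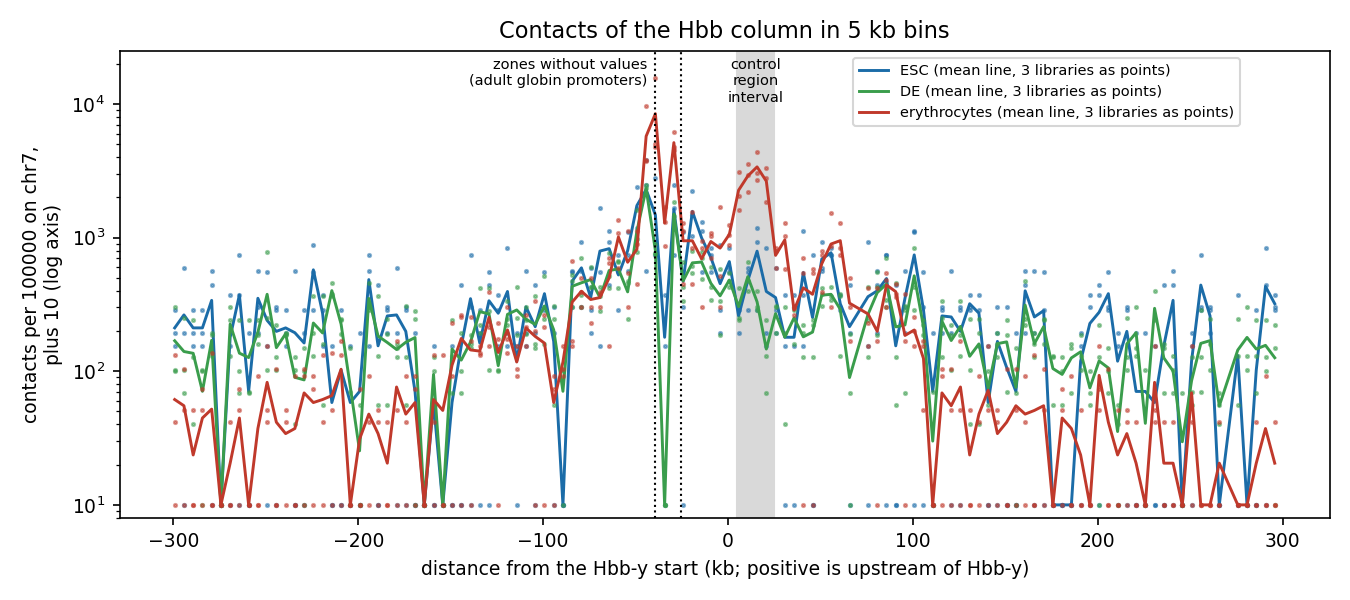
Contact along the window in 5 kb bins (vertical axis, log scale, interactions per 100000 on chromosome 7 plus 10) against distance from the Hbb-y start in kb, with the mean of 3 libraries as a line and each library as a point. The erythrocyte line lies above those of ESC and DE at the adult genes and over the interval 5 to 25 kb upstream of Hbb-y, and below them in the far flanks.

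Every one of the 42 fragments of the interval with reads had a higher mean contact in erythrocytes than in ESC and in DE. Fragments without reads were left out, and some of the 42 had reads in erythrocytes alone, so this is a description. ESC libraries had 0 reads in 21 of the fragments and DE libraries in 9, whereas each fragment had reads in erythrocytes. Single fragments were picked here by their erythrocyte contact, so their differences and bounds are a description. The fragment with most erythrocyte contact, chr7:111022103-111023279, lay 20.3 kb upstream of the Hbb-y start. It had 0 reads in ESC and in DE, and contact of 536, 409 and 872 in erythrocytes. With 3 counts over the group as the floor, it was at least 12.6-fold higher in erythrocytes than in DE and at least 2.80-fold higher than in ESC. The second, chr7:111010488-111011766, had 505, 491 and 727 in erythrocytes against means of 48.3 in ESC and 100 in DE. The third, chr7:111008142-111009073, had 505, 613 and 436 in erythrocytes, 0 reads in ESC and 1 read in DE.

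**Figure D3:**
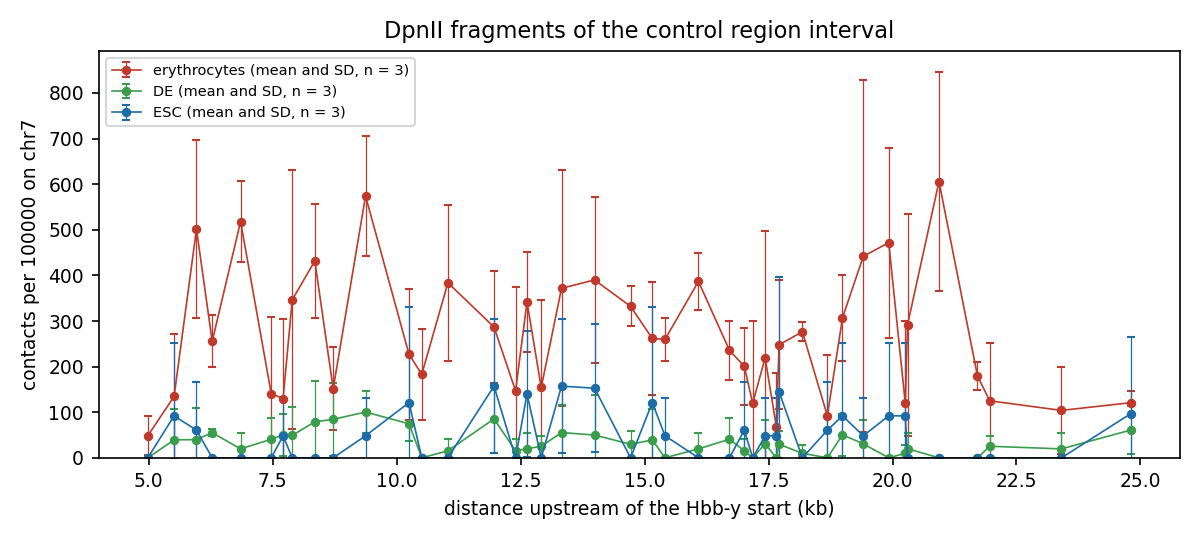
Contact of each fragment of the interval (vertical axis, interactions per 100000 on chromosome 7) against its distance upstream of the Hbb-y start in kb, as the mean of 3 libraries with the SD, the bars cut off at 0. Erythrocyte means exceed those of ESC and DE at all 42 fragments, which are those of the interval with reads.

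The sequence of 1 fragment of the interval is shown, the one of at most 300 bases with most erythrocyte contact, 7.80 kb upstream of the Hbb-y start at chr7:111009552-111009747 (NCBIM37, plus strand). Capitals mark the motif TGAGTCA as well as the motif CACCC on either strand.
Control fragment: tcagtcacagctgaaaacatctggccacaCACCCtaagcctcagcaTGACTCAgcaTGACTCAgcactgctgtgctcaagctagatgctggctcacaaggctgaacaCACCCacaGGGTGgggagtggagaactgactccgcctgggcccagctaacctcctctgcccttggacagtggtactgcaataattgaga

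It held TGAGTCA, the recognition sequence of AP-1 and NF-E2 type factors, at 2 sites and CACCC at 3. The motif AGATAA, bound by GATA factors, was not among its letters. Of 3061 windows of 196 bases tiled over the locus, 2.74% held TGAGTCA, 21.5% CACCC and 16.2% AGATAA. Contact of this fragment was 0 in all ESC libraries, 30.0, 118 and 0 in DE, and 94.6, 654 and 291 in erythrocytes. One erythrocyte library lay below the highest DE library, so erythrocytes and DE overlapped at this fragment. With the floor of 3 counts over the group it was at least 1.78-fold higher in erythrocytes than in ESC. This bound describes a fragment picked by its erythrocyte contact.

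The genes Hbb-y, Hbb-bh0, Hbb-bh1 and Hbb-bh2, summed as the embryonic genes over 27 fragments of chr7:110986659-111002754, lie between the adult genes and the interval, and as a group they were not called in either comparison with erythrocytes. With 1 kb margins, they had contact of 909, 2174 and 2210 in ESC and 1171, 1533 and 1384 in DE. In erythrocytes they had 2145, 2699 and 1890, which overlapped ESC and lay above DE. The log2 difference was 0.71 against DE (SE 0.30, adjusted p = 0.074, limma), and -0.17 with all interactions as the total. It was 0.44 against ESC (SE 0.45, adjusted p = 0.60, limma), and -0.59 with all interactions as the total. The call against DE was gained without the stretches (0.84, limma adjusted p = 0.024) and without erythrocyte replicate 3 (0.82, limma adjusted p = 0.023). Per kb, contact in erythrocytes was 167 for the embryonic genes, 556 for the interval beyond them and 1411 for the adult genes. In ESC the corresponding values per kb were 131, 96.1 and 170, and in DE 102, 66.2 and 131. Without the stretches the adult genes had 1069 per kb in erythrocytes, 280 in ESC and 216 in DE.

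Among the single genes of this group, Hbb-y, the first embryonic gene after the interval, had contact of 364, 580 and 829 in ESC and 450, 649 and 415 in DE. In erythrocytes it had 1041, 1063 and 727. Hbb-bh1, the other embryonic gene, had 545, 1014 and 829 in ESC, 420, 767 and 692 in DE, and 757, 695 and 727 in erythrocytes, so that its groups overlapped. Hbb-bh2 shares fragments with Hbb-bh1 and lay between 0 and 725 in all 9 libraries. Hbb-bh0, a pseudogene, had contact of 0, 145 and 276 in ESC, where it held 2 reads in all, and 150, 0 and 138 in DE. In erythrocytes it had 284, 777 and 291, above every other library. Its log2 difference was 2.73 against DE with a limma adjusted p of 0.073, and 2.08 with an edgeR adjusted p of 0.0052, between 1.07 and 3.67 in the alternatives run. Against ESC it was 2.43 (limma adjusted p = 0.36, edgeR adjusted p = 0.23). Hbb-bh3, next to the adult genes, had 1091, 1014 and 2210 in ESC, 450, 472 and 554 in DE, and 599, 1227 and 291 in erythrocytes. Its 3 ESC values lay above all DE values.

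**Figure D4:**
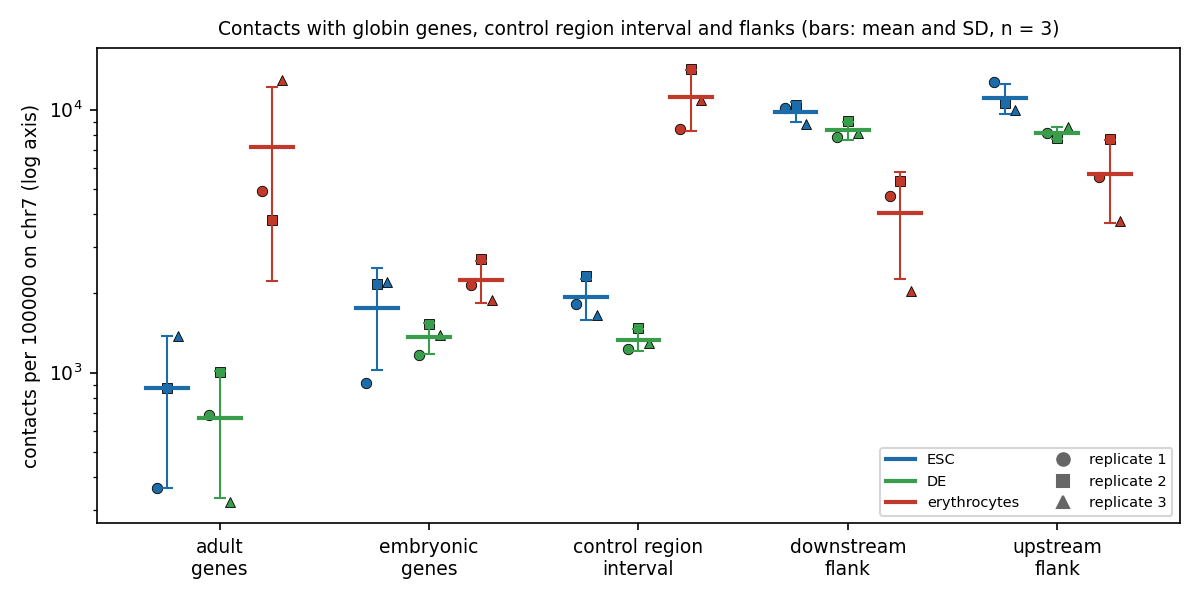
Contact of the adult genes, the embryonic genes, the interval 5 to 25 kb upstream of Hbb-y and both flanks (vertical axis, log scale, interactions per 100000 on chromosome 7), with a point per library and the mean ± SD of 3 libraries per cell type. Erythrocytes lie above ESC and DE at the adult genes and the interval and below them in the flanks.

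The genes nearest the domain were olfactory receptor genes and predicted genes. Olfr66 and Gm15118 lie just upstream of the interval and share fragments. Olfr66 had contact of 182, 145 and 0 in ESC, 90.1, 295 and 185 in DE, and 536, 1104 and 727 in erythrocytes, with no overlap between erythrocytes and either of the others. Its log2 difference was 2.08 against DE (limma adjusted p = 0.018) and 3.52 against ESC (limma adjusted p = 0.12, edgeR adjusted p = 0.027). For Gm15118 the differences were 2.01 (limma adjusted p = 0.025) and 3.64 (limma adjusted p = 0.12, edgeR adjusted p = 0.018). The limma calls of both against DE were lost without DE replicate 1, at 1.65 and 1.49, and without erythrocyte replicate 2, at 1.81 and 1.75. On the other side, Olfr67 lay between 145 and 1104 in all libraries, Olfr68 between 145 and 580 and Olfr69 between 189 and 859, and the cell types overlapped at each. Gm15115, a pseudogene beside the zone at Hbb-b1, lay between 0 and 909.

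The flanks, which hold olfactory receptor genes, showed the opposite order. Against DE, 49.3% of all 5 kb bins tested on chromosome 7 were called lower in erythrocytes too, among bins that could enter through DE reads alone. The downstream flank had contact of 10182, 10435 and 8840 in ESC, 7835, 9080 and 8118 in DE, and 4700, 5358 and 2035 in erythrocytes, where every library was below all others. Its log2 difference was -1.16 against DE (SE 0.36, adjusted p = 0.027, limma), a call lost without any 1 of the DE replicates, with log2 differences from -1.21 to -1.10. Against ESC it was -1.40 (adjusted p = 0.077, limma), -0.96 without erythrocyte replicate 3 (limma adjusted p = 0.042) and 0.26 with TMM scaling. The upstream flank had 12727, 10580 and 9945 in ESC, 8136, 7783 and 8579 in DE, and 5521, 7730 and 3779 in erythrocytes. All erythrocyte libraries were below all others here too, with log2 differences of -0.58 against DE (adjusted p = 0.10, limma), 0.00 with DESeq2 size factors, and -1.02 against ESC (adjusted p = 0.14, limma), 0.64 with TMM scaling.

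The flanks were also cut into pieces of 50 kb, numbered outward from the domain. Near the domain the cell types overlapped: downstream piece 1 had a mean contact of 3065 ± 396 in ESC, 2872 ± 395 in DE and 2084 ± 650 in erythrocytes, and upstream piece 1 had 3862 ± 1074, 2703 ± 558 and 4335 ± 1701. Downstream piece 2 had 1535 ± 678, 1290 ± 219 and 1041 ± 653. In the far pieces erythrocytes were lower than each ESC and DE library, and the direction was kept in every alternative run. Against DE the median log2 difference over all chromosome 7 bins tested was -2.63. Bins entered by reads summed over both cell types, so some could enter through DE reads alone, and this median is no clean background. Whether lower contact was particular to these pieces was not tested. Against ESC 52 of the 53 bins tested lay in the window, so the chromosome gave no background at all. In upstream piece 5, which starts 271 kb from the nearer zone, erythrocytes had contact of 126, 81.8 and 145 against 751, 1238 and 1107 in DE and 1455, 1304 and 1657 in ESC. The log2 difference there was -3.03 against DE (limma adjusted p = 0.0014) and -3.56 against ESC (limma adjusted p = 0.0092). Downstream piece 4 had 410, 450 and 145 in erythrocytes, and log2 differences of -2.43 (limma adjusted p = 0.0070) and -2.98 (limma adjusted p = 0.0052). Upstream pieces 2 and 4 were called lower in both comparisons too, at -1.39 and -2.12 against DE and -1.84 and -2.69 against ESC. Upstream piece 3 and downstream piece 3 were not called by limma in either comparison, with erythrocyte replicate 3 at 0 reads, and were called by edgeR in both (highest adjusted p = 0.0089). The 4 pieces called against ESC by limma were called by edgeR too (highest adjusted p = 0.0032). With TMM scaling all 4 limma calls of pieces against ESC were lost. That of upstream piece 4 against ESC was lost without ESC replicate 2 (-2.40, limma adjusted p = 0.064). The call of upstream piece 2 against DE was lost without DE replicate 2 (-1.28, limma adjusted p = 0.051), with TMM scaling, with DESeq2 and without a read minimum. With DESeq2 size factors, limma lost the calls against DE of downstream piece 4 (adjusted p = 0.071), upstream piece 2 (adjusted p = 0.27) and upstream piece 4 (adjusted p = 0.061).

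**Figure D5:**
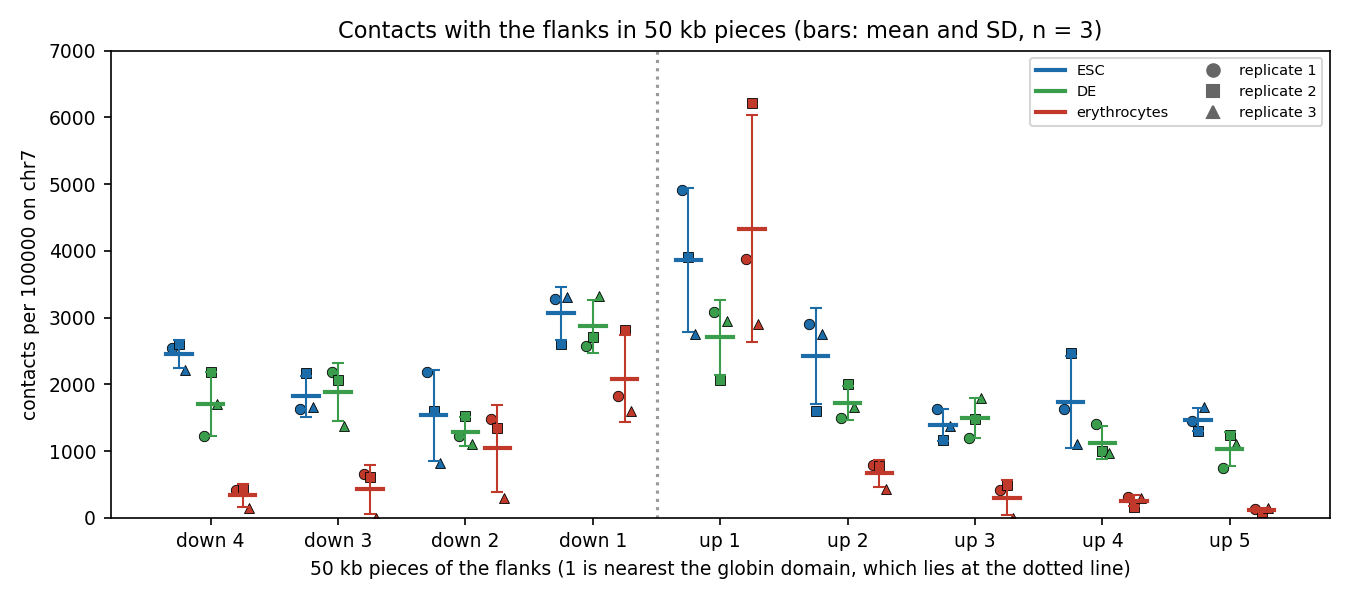
Contact of the 50 kb pieces of both flanks (vertical axis, interactions per 100000 on chromosome 7), numbered outward from the domain, with a point per library and the mean ± SD of 3 libraries per cell type. Erythrocyte libraries fall below all ESC and DE libraries in downstream pieces 3 and 4 and upstream pieces 2 to 5, and not in the pieces next to the domain.

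In 5 kb bins of the window, 12 of 95 bins tested were higher in erythrocytes than in DE with limma, beside 6.34% of all bins tested on chromosome 7, and 18 were lower, beside 49.3%. The median log2 difference was -1.12 over the bins of the window and -2.63 over those of the chromosome. With edgeR 18 were higher and 16 lower, and without the stretches limma called 11 higher of 26 in all. Without DE replicate 1, 2 or 3, limma called 10, 15 and 12 bins in all in place of 30. All 12 higher bins lay between chr7:110955001 and chr7:111065000, and 4 of them in the interval. The bin chr7:111020001-111025000 had contact of 1830, 3313 and 2762 in erythrocytes against 120, 59.0 and 231 in DE, a log2 difference of 4.31 (limma adjusted p = 0.00071). Its neighbour chr7:111015001-111020000 differed by 3.34 (limma adjusted p = 0.00071) and chr7:111005001-111010000 by 2.89 (limma adjusted p = 0.0011). The bin chr7:110960001-110965000 differed by 3.17, and by 2.27 without the stretches. The bin chr7:110965001-110970000, inside the second stretch, had 0 reads in DE and was at least 29.3-fold higher in erythrocytes by the floor of 3 counts over the group. That stretch was chosen for this difference and the bin passed the read minimum through erythrocytes alone, so its call and bound are a description.

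The 18 lower bins lay in the flanks, 6 downstream and 12 upstream, and 14 of them were called by edgeR as well. Those with the largest fitted change against DE were chr7:111280001-111285000, chr7:111260001-111265000 and chr7:111255001-111260000, each with 0 erythrocyte reads and 10 or 11 DE reads. By the floor they were at least 3.21-fold, 3.21-fold and 2.92-fold lower. These 3 bins passed the read minimum through DE alone and so had to differ. The other lower bins held few erythrocyte reads and passed it mostly through DE. The calls of the 18 bins, with either test, and the bounds are therefore a description. The bins chr7:110730001-110735000 and chr7:111220001-111225000 had log2 differences of -3.72 and -3.49, each with reads in erythrocyte replicate 1 alone.

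Against ESC, 6 of 52 bins tested were higher in erythrocytes with limma, beside 11.3% of the chromosome's bins, of which all but 1 lay in the window. With limma 0 were lower, beside 0.0%, whereas edgeR called 8 higher and 3 lower, and 13 bins passed an unadjusted limma p of 0.05. Of the 6 higher bins 4 lay in the interval, and all 6 were called by edgeR as well. In chr7:111020001-111025000 erythrocytes had the contact given above and ESC had 182, 145 and 829, a log2 difference of 3.14 (limma adjusted p = 0.0098). The other bins of the interval differed by 3.10 at chr7:111005001-111010000, 2.64 at chr7:111010001-111015000 and 2.29 at chr7:111015001-111020000. The bin chr7:110960001-110965000 differed by 2.54 (limma adjusted p = 0.016), and by 1.65 without the stretches, where the call was lost (limma adjusted p = 0.053). The call of chr7:111015001-111020000 was lost without erythrocyte replicate 2, and those of chr7:111020001-111025000 and chr7:110960001-110965000 without ESC replicate 2. With all interactions as the total, limma called 0 bins, against 14 with TMM scaling and 5 without the stretches.

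Of single fragments, 37 of 120 were higher in erythrocytes than in DE with limma, beside 30.8%, and 2 lower, beside 1.67%, where every fragment tested lay in the window so that these are the same counts. With edgeR 53 were higher and 2 lower. The interval held 18 of the 37. Of the 37, 11 had 0 DE reads, passed the minimum of 10 reads through erythrocytes alone and so had to differ. Others had too few DE reads to pass the minimum without erythrocytes, so the count against DE supports nothing by itself. In all, limma called 17 fragments without erythrocyte replicate 1 and 12 without replicate 2, in place of 39, and 31 without the stretches. Against ESC 25 of 91 were higher with limma, beside 27.5%, and 0 were lower, beside 0.0%. An unadjusted limma p under 0.05 was reached by 36, and edgeR called 21 higher and 0 lower. Of the 25, 12 lay in the interval and 18 were called by edgeR, and without the stretches 18 were called by limma. The count supports nothing by itself, since 24 of the 25 had 0 ESC reads, passed the minimum of 10 reads through erythrocytes alone and so had to differ. For 3 of these the floor of 3 counts over ESC gave no bound above 1-fold. Without erythrocyte replicate 1 or 2, limma called 15 and 14. The fragment chr7:110959283-110961282 is part of the first stretch, which was chosen for its difference, and replicate 3 had most of its erythrocyte contact, 9738 against 1861 and 982 in replicates 1 and 2.

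Between DE and ESC, the pair of cell types of 1 strain, none of the 5 regions was called by limma or edgeR. The limma log2 differences were -0.32 for the adult genes, -0.27 for the embryonic genes, -0.52 for the interval, -0.23 for the downstream flank and -0.43 for the upstream flank, with limma adjusted p between 0.22 and 0.85, and all 5 were above 0 with TMM scaling. Hbb-bh3 alone among the single genes and pieces passed in limma, lower in DE by 1.44 on the log2 scale (adjusted p = 0.027), and did not with edgeR (adjusted p = 0.37). Of 94 bins 1 was higher in DE with limma, beside 10.9%, and 0 were lower, beside 0.0%. That bin, chr7:111280001-111285000, had 0 reads in ESC and 11 in DE, so that it passed the minimum through DE alone, and the floor of 3 counts over ESC gave no bound above 1-fold. Leaving out 1 library at a time gave between 0 bins, without any of the DE replicates, and 8, without ESC replicate 2. EdgeR called 0 bins, with 6 at an unadjusted p under 0.05, against 5 with limma. Of 35 fragments limma called 2 higher, beside 5.71%, and 0 lower, beside 0.0%, both with 0 ESC reads, and edgeR called 0 with 6 at an unadjusted p under 0.05.

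The share of chromosome 7 interactions in the globin domain, from 30 kb beyond Hbb-b2 to 25 kb upstream of the Hbb-y start, was higher in erythrocytes. It was 16.5% ± 0.575 (SD, n = 3) in ESC and 11.8% ± 0.687 in DE. In erythrocytes it was 31.1% (95% Wilson interval 29.5% to 32.7%), 43.4% (41.4% to 45.3%) and 46.7% (43.0% to 50.4%) in replicates 1, 2 and 3. All 3 erythrocyte libraries were above all others, at an exact two-sided permutation p of 0.1, the smallest that 3 against 3 can give. As a share of all interactions, the domain in erythrocytes was 4.49 percentage points above ESC (exact permutation p = 1.0) in place of 23.8. By that share, erythrocyte replicates 1 and 3 lay below every ESC library, and replicate 2 alone lay above. As a share of chromosome 7 without the stretches, the domain was 18.4 points above ESC (exact permutation p = 0.1). For the whole window the shares were 39.0% ± 2.34 in ESC, 29.2% ± 0.270 in DE and 52.5% ± 8.28 in erythrocytes, with exact two-sided permutation p of 0.1 in each comparison. Erythrocytes exceeded ESC by 13.5 percentage points, by 9.08 (exact permutation p = 0.2) without the stretches, by 4.97 (exact permutation p = 0.5) without the 20 kb around the zones, and by -6.04 (exact permutation p = 0.6) with all interactions as the total.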

How the data were processed

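Per the labels, 3C libraries of 3 cell types were captured with an enhancer and a promoter set of oligonucleotides, and the submitters' processing notes name Trim Galore, Bowtie and mm9, without a version number (not given in the sources used here). By the file values, the authors deposited a signal per DpnII fragment and viewpoint, scaled so that each column sums to 100000. All values of the Hbb columns (100.0%, within 0.05 of a whole number) were multiples of 1 read, so reads were recovered by division. Of the columns of the tables, 18 were used and 90 were not. All 78338 chromosome 7 fragments of the files matched a DpnII digest of NCBIM37, and genes are from GENCODE M1.

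Reads were rescaled to 100000 chromosome 7 interactions, and regions were sums over the fragments that overlap them, outside the empty zones. Regions and 5 kb bins of chromosome 7 with at least 10 reads entered limma 3.58.1 (R 4.3.3; lmFit, eBayes with trend) on log2(value + 10), with the 6 libraries of the 2 cell types compared and no covariate. Adjusted p are Benjamini-Hochberg over all chromosome 7 bins and regions tested, or over all fragments, with a threshold of 0.05. For features with few reads, log2 differences depend on the pseudocount and can exceed those from counts. For Hbb-b2 against ESC the difference was 4.49 with limma, 3.68 with a pseudocount of 50 and 3.32 with edgeR. An exact permutation test (two-sided) was used for shares. The tests were run on counts simulated at the depth of these libraries, with the same spread for all cell types and rises as likely as falls. Among the bins called, the share that had not been changed exceeded the threshold with limma in both comparisons with ESC. The share was below the threshold with limma against DE and with edgeR in all 3 comparisons. Cell types differ in spread in the data, so these shares may not carry over. For this reason edgeR values stand beside limma's against ESC. Named features were all globin genes and pseudogenes, the control region interval, the nearest 2 genes on each side, the 50 kb pieces, and in each comparison the 5 bins at most with the largest called rise and the 5 with the largest called fall.

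Alternatives were other pseudocounts (2, 50), totals, TMM and DESeq2 size factors, edgeR 4.0.16 and DESeq2 1.42.0 on the recovered reads, limma without trend, no read minimum, all 3 cell types in the fit, a replicate block, 10 kb bins, other margins and intervals, and each library left out in turn. Leaving out the 2 stretches and using erythrocyte replicate 2 alone were added after the values were seen. The fragments, regions and lists were chosen with earlier results of these data known. Between libraries of a cell type, chi-square over degrees of freedom was 1.17 to 1.30 in DE, 1.63 to 2.79 in ESC and 4.93 to 6.20 in erythrocytes. The DE ratios were close to that of sampling noise alone. None of the libraries was counted as a duplicate. Python 3.11.15, pandas 2.3.3 and scipy 1.17.1 were used.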

Additional observations from a re-analysis of the deposited data

How the results depend on the processing

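Of the values under alternative settings, 418 of the main results kept direction and side of the threshold, 48 counts moved by more than 1.5 times, 18 results reversed, 16 passed the threshold only under the alternative and 12 passed it no longer. For single genes, pieces and bins these numbers were 623 kept, 58 gained, 51 lost and 0 reversed. The cause was not tested. Against ESC the median log2 difference of all chromosome 7 bins moved by -0.99 with all interactions as the total and by 1.43 with TMM scaling, against DE by 0.49 with DESeq2 size factors, and for DE against ESC by -0.28, 0.72 and 0.37 in the same order of settings.

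Erythrocytes against ESC: with all interactions as the total the log2 difference was 1.97 for the adult genes, 1.47 for the interval and -0.59 for the embryonic genes, the window share differed by -6.04 percentage points, and 0 bins were called. TMM scaling gave 14 bins, 41 fragments, 2.08 for the embryonic genes, 0.26 for the downstream and 0.64 for the upstream flank. EdgeR called 11 bins, DESeq2 10 bins and 1 fragment, and limma without trend 2 bins, with the adult genes at 3.02 (adjusted p = 0.069). Without a read minimum 2 fragments were called, and the flanks passed at -1.40 and -1.02, as they did with all 3 cell types in the fit at -1.40 and -1.02. The downstream flank also passed with a pseudocount of 50 (-1.38), DESeq2 size factors (-1.47) and 10 kb bins (-1.40). Erythrocyte replicate 2 alone gave 13 fragments; with 1 library the erythrocytes have no spread of their own, and that library is assumed to vary like the libraries of the other cell type. With 1 library left out, fragments ranged from 14 to 35, the adult genes from 2.49 to 3.45 and the downstream flank from -1.66 to -0.96.

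Erythrocytes against DE: 19 bins were called with DESeq2 size factors, 15 with DESeq2, 19 without a minimum and 14 with all 3 cell types. Fragments called were 13 with all interactions as the total, 21 with TMM, 14 with DESeq2 size factors, 24 with DESeq2, 16 without a minimum, 24 with all 3 cell types and 6 with erythrocyte replicate 2 alone. The embryonic genes were at -0.17 with all interactions as the total and passed at 1.03 with chromosome 7 beyond 20 kb as the total, 0.80 with 2 kb margins, 0.84 without the stretches and 0.99 with erythrocyte replicate 2 alone, where DE libraries alone gave the spread. The downstream flank was not called with chromosome 7 beyond 20 kb as the total (-0.84), TMM (-1.14), DESeq2 size factors (-0.58), DESeq2 (-1.03) and no trend (-1.16), and the upstream flank was at 0.00 (0.00062) with DESeq2 size factors. With 1 library left out, bins ranged from 10 to 34, fragments from 12 to 34, the embryonic genes from 0.57 to 0.82, the downstream flank from -1.43 to -0.73 and the upstream flank from -0.84 to -0.32.

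DE against ESC: 2 bins were called with all interactions as the total, chromosome 7 beyond 20 kb as the total, 10 kb bins and no margin, and 0 with edgeR, DESeq2 and no minimum. Fragments called were 0 with edgeR, DESeq2 and no minimum and 1 with all 3 cell types. TMM scaling gave 0.67 for the adult genes, 0.72 for the embryonic genes, 0.47 for the interval, 0.77 for the downstream and 0.57 for the upstream flank, and DESeq2 size factors gave 0.29, 0.35, 0.094, 0.39 and 0.19. The upstream flank passed at -0.43 without a minimum. With 1 library left out, bins ranged from 0 to 8, fragments from 0 to 3 and the adult genes from -0.84 to 0.13.

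The labels number replicates alike in all cell types. Deviations of libraries of the same number had correlations over 245 bins from -0.08 to 0.14. Many bins held few reads, so these values cannot show whether the numbers pair libraries. The replicate block gave 2 bins for DE against ESC in place of 1, 6 bins against ESC and 28 against DE, and changed no call of the 5 regions. ESC libraries had at most 262 reads in the window, and 24 of the 25 fragments called against ESC had no ESC read.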
